A study of Mus musculus with 16 samples.

Results

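Cell type differences were examined in irradiated bone marrow progenitors of mice without Parp-2, by setting LSK cells against myeloid progenitors (MP). The arrays were chosen by their labels alone. They were the 2 pools of Parp-2-/- LSK cells and the 2 pools of Parp-2-/- MP cells taken 2.5 h after 5 Gy of gamma radiation, 4 of the 16 arrays of the series. LSK cells were lineage-negative, Sca1-positive and c-Kit-positive, and MP cells were lineage-negative, Sca1-negative and c-Kit-positive. All mice had the C57BL/6J background, every pool held cells of at least 3 mice, and total RNA of each pool was hybridised to a biotin-labelled whole-transcript Affymetrix array. The labels give the mutant genotype without the form of the allele, the age or the sex of the mice, and do not say whether the LSK and MP pools came from the same mice. Unirradiated Parp-2-/- cells and irradiated wild-type (WT) cells of the same 2 populations, with 2 pools per group, serve below as comparators.

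LSK cells hold the haematopoietic stem cells together with multipotent and lymphoid-primed progenitors, and MP cells hold the progenitors of granulocytes, monocytes, erythroid cells and megakaryocytes. Parp-2 is a nuclear enzyme that binds DNA breaks and attaches ADP-ribose chains to itself and to neighbouring proteins, beside the more abundant Parp-1. Ionising radiation breaks DNA, activates p53 and its targets, and halts the cell cycle, and stem cells and committed progenitors are known to differ in cycling and in their DNA damage responses. The comparison asks which differences between the populations are seen shortly after irradiation in the absence of Parp-2.

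Values are log2 intensities, so a difference of 1 is a 2-fold change, and every difference is LSK minus MP with its standard error (n = 2 pools per group). A row of the array table was called when its limma p-value, after Benjamini-Hochberg adjustment across 22961 rows, was under 0.05. Each p-value measures the spread between pools. Precision is limited by the number of arrays, with a median standard error of 0.207 per difference. The LSK pools differed more from each other than the MP pools did. The standard deviation of the difference between the pools, over all tested rows, was 0.497 in irradiated Parp-2-/- LSK cells and 0.283 in irradiated Parp-2-/- MP cells, and their correlations across rows were 0.966 and 0.991. In the 4 conditions of the series these deviations ran from 0.443 to 0.497 for LSK pools and from 0.229 to 0.318 for MP pools. In bulk RNA, fewer cells of a type and less RNA per cell cannot be told apart, so each difference below is one between the populations as collected.

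The genotype and the gate were examined through the genes they rest on. Parp2 read 6.14 and 6.77 in irradiated Parp-2-/- LSK pools and 6.75 and 6.76 in irradiated Parp-2-/- MP pools, against 7.83 and 7.96 in irradiated WT LSK pools and 8.40 and 8.36 in irradiated WT MP pools. All 4 Parp-2-/- arrays were thus lower than all 4 WT arrays, and the LSK minus MP difference within Parp-2-/- did not pass (-0.30 ± 0.26, adjusted p = 0.51). Kit, the receptor that both gates require, read 8.78 and 9.02 in LSK pools and 8.96 and 8.62 in MP pools (0.11 ± 0.17, adjusted p = 0.73), and the cell types overlapped. The gene for Sca1, Ly6a, is on no tested row of its own and was not analysed here. Parp1, whose product is the main nuclear ADP-ribose polymerase, read 7.59 and 7.77 in LSK pools and 8.52 and 8.51 in MP pools (-0.84 ± 0.15, adjusted p = 0.013). Both LSK pools lay below both MP pools for Parp1, but the call was lost without LSK pool 1, without either MP pool and after a further quantile normalization.

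Of the 22961 rows, 935 were called (4.07%). LSK cells were higher on 202 rows (0.88%) and lower on 733 (3.19%), and 91 of the higher and 466 of the lower rows differed at least 2-fold. The split depends on the scaling, since 21.6% of the calls were higher with the values as deposited and 38.3% after a further quantile normalization (207 higher and 334 lower). Without MP pool 1 the count of calls was 157, without MP pool 2 it was 123 and without LSK pool 1 it was 537. In these fits the lone pool of a group is assumed to vary like the other groups. Of 127 named genes that were called, 43 were still called without MP pool 1, 28 without MP pool 2, 62 without LSK pool 1 and 95 without LSK pool 2. The call held in each of these 4 fits for 24 genes, namely Dntt, Gimap6, Il18r1, Hlf, Flt3, Iigp1, Angpt1 and Dmac2 among those higher in LSK cells, and Mt2, Cldn13, Car1, Atp1b2, Rhag, Asb17, Kel, Gda, Ces2g, Ms4a3, Ccnb1ip1, Zfp61, Ttk, Fcgr3, Tfrc and Pgd among those lower.

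**Figure D1:**
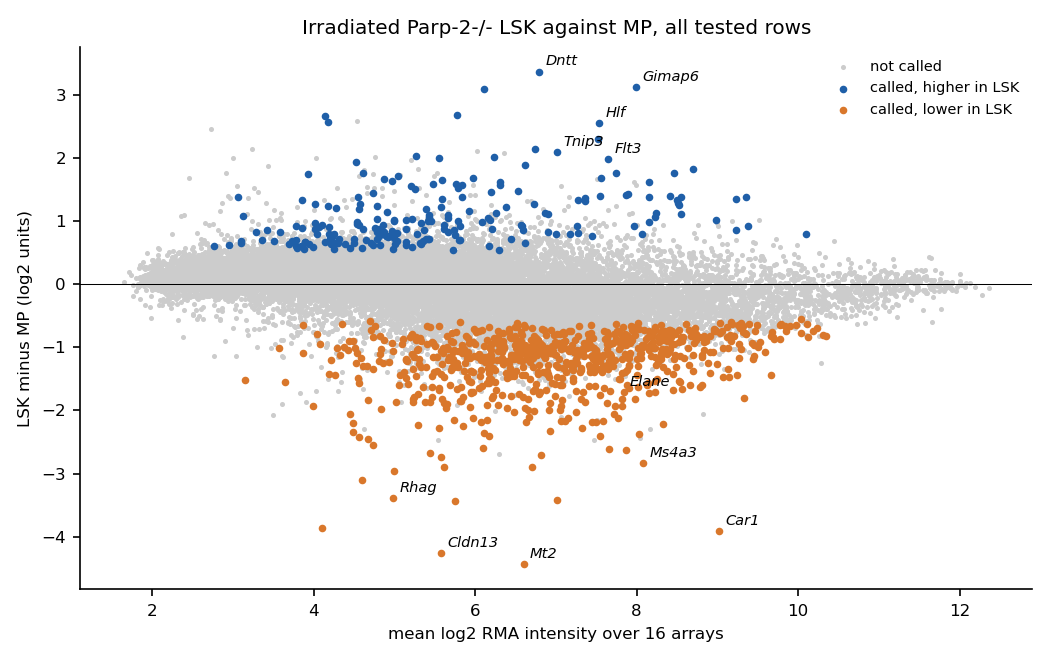
LSK minus MP difference in irradiated Parp-2-/- cells (vertical axis, log2 units) against the mean log2 intensity over 16 arrays (horizontal axis) for the 22961 tested rows. Blue points are the 202 rows called higher in LSK cells, orange points the 733 called lower and grey points the rest, and the lower calls reach further from 0 than the higher ones.

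Genes of lymphoid and stem cell character were among those with the largest excess in LSK cells. Dntt, the polymerase that adds nucleotides without a template during antigen receptor rearrangement, read 7.88 and 8.11 in LSK pools and 4.92 and 4.33 in MP pools (3.37 ± 0.34, adjusted p = 0.00088). Both MP pools lay below their array medians, so the size of the 10.3-fold difference is uncertain. Gimap6, a GTPase of the immunity-associated family of lymphocytes, read 9.93 and 9.39 in LSK pools and 6.81 and 6.26 in MP pools (3.13 ± 0.33, adjusted p = 0.0011). Hlf, a transcription factor gene of haematopoietic stem cells, read 8.82 and 8.39 in LSK pools and 6.39 and 5.71 in MP pools (2.56 ± 0.23, adjusted p = 0.0003). These and the other genes among the 15 largest each way were chosen so that the pools do not overlap. Their separation is therefore not a further result.

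Signalling genes followed. Flt3, the receptor tyrosine kinase of multipotent and lymphoid-primed progenitors, read 8.68 and 8.59 in LSK pools and 6.90 and 6.39 in MP pools (1.99 ± 0.24, adjusted p = 0.0017). Il18r1, a subunit of the interleukin-18 receptor, read 5.98 and 5.46 in LSK pools and 3.33 and 2.97 in MP pools (2.57 ± 0.36, adjusted p = 0.0037). Both MP pools lay below the array medians for Il18r1, so the size of its difference is uncertain. Angpt1, the ligand of the Tek receptor, read 9.45 and 9.31 in LSK pools and 7.70 and 7.42 in MP pools (1.83 ± 0.22, adjusted p = 0.0021). Separation of the groups was again a condition of the choice. Ltb, a lymphotoxin subunit of the tumour necrosis factor family, read 8.15 and 8.36 in LSK pools and 4.96 and 5.38 in MP pools (3.09 ± 0.65, adjusted p = 0.023). The Ltb call was lost whichever of the 4 pools was left out. The remaining genes among the 15 largest, Myl10, Tnip3, Samd12, Stxbp4, Wfdc17, Iigp1, Myct1 and Ctla2a, were higher by 1.77 to 2.14 log2 units, and a further Stxbp4 row read 0.28. Both MP pools were below the array medians for Samd12, Wfdc17 and Iigp1.

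**Figure D2:**
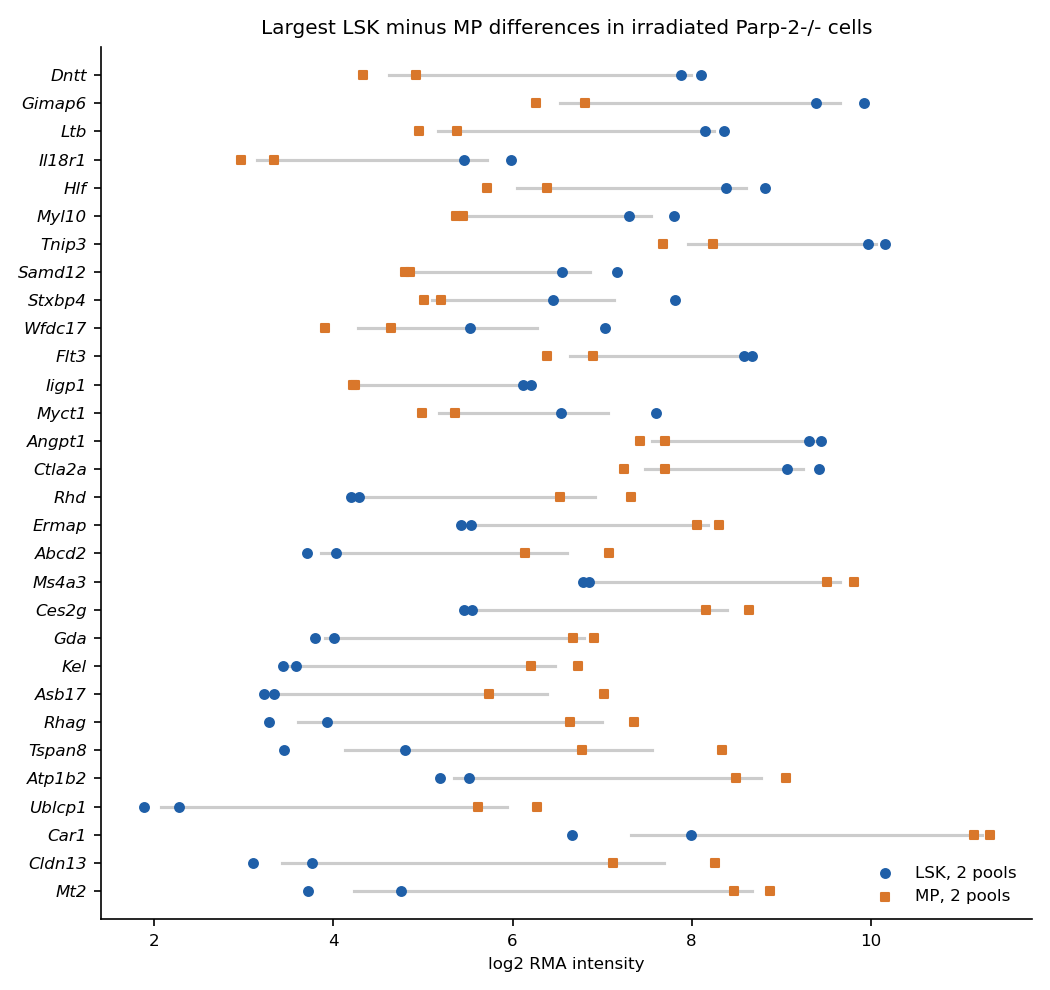
Log2 RMA intensity (horizontal axis) of the 15 genes with the largest higher and the 15 with the largest lower LSK minus MP difference in irradiated Parp-2-/- cells. Blue circles are the 2 LSK pools, orange squares the 2 MP pools, and grey lines join the group means; the genes were chosen so that the groups do not overlap, from Dntt at the top (3.37) to Mt2 at the bottom (-4.44).

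The gene lists used from here on were chosen with earlier results of these data known, so their called shares are descriptive and not a test. Among stem cell markers, 8 of 37 measured genes were higher in LSK cells (21.6%, beside 0.88% of all tested rows), 0 were lower and 29 did not pass. Their median difference was 0.42, against 0.09 over all tested rows. Besides Hlf and Angpt1 these were Meis1 (1.41 ± 0.28, adjusted p = 0.02), a homeobox partner of Hox proteins, Rbpms (1.27), an RNA-binding protein, and Ifitm1 (0.93), an interferon-induced membrane protein. Robo4 (0.88), a guidance receptor, Hoxa10 (0.77), a homeobox gene, and Procr (0.77), the endothelial protein C receptor, were higher with both MP pools below the array medians. Mecom, a zinc finger regulator of stem cells, was uneven between LSK pools, at 4.98 and 6.88, against 4.46 and 4.57 in MP pools, and did not pass (1.42 ± 0.48, adjusted p = 0.12). Of the 37 differences, 31 were above 0. The largest below 0 were those of Abcg2 (-0.99, adjusted p = 0.096) and Mllt3 (-0.68, adjusted p = 0.094), which did not pass. All 17 measured genes of the Hox clusters had differences above 0, but only Hoxa10 was called. Of these 17, 7 lay below the array medians on all 4 arrays, and all 17 were also above 0 in unirradiated Parp-2-/- and in irradiated WT cells. Differences of dim rows were often above 0, as for 16 of 18 T and NK cell markers, of which 15 lay below the array medians on all 4 arrays. The count of 8 called stem cell markers was 3 without MP pool 1 and 2 without MP pool 2.

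Of 17 measured lymphoid priming genes, 6 were higher in LSK cells (35.3%, beside 0.88% of all tested rows), 0 were lower and 11 did not pass (median 0.45). They were Dntt, Flt3, Wfdc17 (2.00), Cd27 (1.39 ± 0.24, adjusted p = 0.0092), a co-stimulatory receptor of the tumour necrosis factor receptor family, Satb1 (1.33 ± 0.21, adjusted p = 0.0064), a chromatin organiser of lymphoid progenitors, and Lsp1 (1.32), an actin-binding protein of leukocytes. Cd27 read 9.18 and 8.88 in LSK pools and 7.81 and 7.47 in MP pools, and the pools did not overlap. The lymphoid count was 2 without MP pool 2. Il7r, the interleukin-7 receptor chain, lay below the array medians in all 4 pools, at 3.30 and 3.48 in LSK pools and 3.19 and 2.99 in MP pools. Among 53 haematopoietic transcription factors, Satb1, Erg (1.14 ± 0.23, adjusted p = 0.021) and Bcl11a (1.02 ± 0.25, adjusted p = 0.041) were higher. Nfia was lower (-1.59 ± 0.34, adjusted p = 0.024) and 49 did not pass, so that 7.55% was called beside 4.07% of all tested rows. These 4 calls were 1 without LSK pool 1, 2 without MP pool 1 and 0 without MP pool 2, and after a further quantile normalization 5 factors were higher and 0 lower. The myeloid regulator Spi1 (0.50, adjusted p = 0.16) and the erythroid regulators Gata1 (-0.80, adjusted p = 0.15) and Klf1 (-0.98, adjusted p = 0.17), chosen after their values were seen, were among those that did not pass.

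Erythroid genes were among the largest deficits in LSK cells. The erythroid list, which includes Mt2 and Ces2g, was likewise chosen with earlier results known, so its called share is descriptive. That share was 52.2%, all lower, beside 3.19% of all tested rows. Of 23 measured erythroid markers, 12 were lower, 0 were higher and 11 did not pass (median -1.06), and the count was 7 without MP pool 2 and 10 without any other of the 4 pools. Mt2, a metal-binding metallothionein, read 3.71 and 4.75 in LSK pools and 8.47 and 8.88 in MP pools (-4.44 ± 0.47, adjusted p = 0.0011). Car1, a carbonic anhydrase of red cells, read 6.66 and 7.99 in LSK pools and 11.15 and 11.33 in MP pools (-3.91 ± 0.49, adjusted p = 0.0021). LSK pools were low and unequal for both genes, yet far below the MP pools. Cldn13, a claudin of mouse erythroid cells, read 3.76 and 3.10 in LSK pools and 7.12 and 8.26 in MP pools (-4.26 ± 0.48, adjusted p = 0.0015). Rhag, a membrane glycoprotein of the Rh complex, read 3.28 and 3.93 in LSK pools and 6.64 and 7.36 in MP pools (-3.39 ± 0.45, adjusted p = 0.003). Kel, the Kell blood group metalloprotease, read 3.58 and 3.44 in LSK pools and 6.21 and 6.73 in MP pools (-2.96 ± 0.39, adjusted p = 0.0027). Both LSK pools lay below the array medians for Mt2, Cldn13, Rhag, Kel and Rhd, so the sizes of these differences are uncertain. The other called members were Ces2g, Ermap, Rhd, Tfrc, Aqp1, Icam4 and Ank1, between -2.89 and -1.06. They include the transferrin receptor Tfrc, at 6.59 and 6.40 in LSK pools and 8.15 and 8.13 in MP pools (-1.64 ± 0.22, adjusted p = 0.0031), with no overlap. Among the 15 largest deficits outside the erythroid and granulocyte lists, Ublcp1 (-3.86), a phosphatase with a ubiquitin-like domain, Tspan8 (-3.43), a tetraspanin, Asb17 (-3.10), Gda (-2.90 ± 0.25, adjusted p = 0.00026), the guanine deaminase, and Abcd2 (-2.74), a peroxisomal fatty acid transporter, had both LSK pools below the array medians. Atp1b2, a subunit of the sodium pump, read 5.19 and 5.51 in LSK pools and 8.50 and 9.05 in MP pools (-3.43 ± 0.38, adjusted p = 0.0013).

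Some haem genes were called too, 26.3% of the list beside 4.07% of all tested rows. Of 19 measured haem and iron genes, Blvrb (-1.78), Alas1 (-1.59 ± 0.31, adjusted p = 0.017), Fech (-1.39 ± 0.20, adjusted p = 0.0039) and Urod (-1.27) were lower and 14 did not pass (median -0.57). Alas1 encodes the ubiquitous first enzyme of haem synthesis, Fech the enzyme that inserts iron, Urod an intermediate step and Blvrb a biliverdin reductase. Hmox1, the haem oxygenase that degrades haem, went the other way, at 6.17 and 6.20 in LSK pools and 4.66 and 4.26 in MP pools (1.72 ± 0.26, adjusted p = 0.0054), with both MP pools below the array medians. The count of called genes in the list was 5 with all arrays, 2 without LSK pool 1, 3 without MP pool 1 and 0 without MP pool 2.

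Granulocyte and monocyte progenitor markers were also lower in LSK cells, 12 of 25 measured (48%, beside 3.19% of all tested rows), with 0 higher and 13 that did not pass (median -0.93). Ms4a3, a membrane protein of granulocyte and monocyte progenitors, read 6.79 and 6.85 in LSK pools and 9.81 and 9.51 in MP pools (-2.84 ± 0.36, adjusted p = 0.0021). Elane, neutrophil elastase, read 7.30 in both LSK pools and 9.08 and 8.95 in MP pools (-1.71 ± 0.35, adjusted p = 0.02). For Elane the cell types did not overlap. Differences between pools of a cell type were small for both genes. Fcgr3, an Fc receptor for IgG, read 4.66 and 4.93 in LSK pools and 6.86 and 6.29 in MP pools (-1.78 ± 0.25, adjusted p = 0.0037). Both LSK pools lay below the array medians for Fcgr3, so the size of its difference is uncertain. F13a1 (-2.16), Hp (-1.86), Cst7 (-1.60), Nkg7 (-1.54), the granule proteases Ctsg (-1.43) and Prtn3 (-1.41), Prss57 (-1.27), Ly86 (-1.06) and Ap3s1 (-0.93) made up the rest. Mpo, the myeloperoxidase of primary granules, was abundant in both cell types, at 11.27 and 11.37 in LSK pools and 11.84 and 11.63 in MP pools (-0.41, adjusted p = 0.16), and was named after its values were seen. The receptor genes Csf3r (0.70, adjusted p = 0.054) and Csf2ra (0.60, adjusted p = 0.18) were the 2 members with differences above 0 and did not pass. After a further quantile normalization Csf3r was called higher (adjusted p = 0.017). The count of 12 was 2 without either MP pool and 6 without LSK pool 1, and after a further quantile normalization 7 were lower and 1 was higher.

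Promoters of 4 called genes of these lists are printed to show where the motifs counted below lie. They are RefSeq sequences of assembly GRCm38.p6, 250 bases long, ending at the base before the annotated start, and written 5′ to 3′ on the gene's strand. Kel lies at chr6:41704326-41704575 (minus strand), Rhd at chr4:134864286-134864535 (plus strand), Elane at chr10:79886062-79886311 (plus strand) and Prtn3 at chr10:79879417-79879666 (plus strand). Capitals mark AGATAA, a sequence of the kind bound by GATA factors, in Kel and Rhd, and GAGGAA, the core bound by the ETS factor PU.1, in Elane and Prtn3. Rhd also holds GAGGAA on the other strand (ttcctc), left in lower case.
Kel: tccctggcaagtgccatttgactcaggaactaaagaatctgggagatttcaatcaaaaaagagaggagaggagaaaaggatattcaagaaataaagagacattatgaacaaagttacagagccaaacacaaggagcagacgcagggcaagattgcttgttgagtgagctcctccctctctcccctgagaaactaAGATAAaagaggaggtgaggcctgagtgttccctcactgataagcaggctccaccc
Rhd: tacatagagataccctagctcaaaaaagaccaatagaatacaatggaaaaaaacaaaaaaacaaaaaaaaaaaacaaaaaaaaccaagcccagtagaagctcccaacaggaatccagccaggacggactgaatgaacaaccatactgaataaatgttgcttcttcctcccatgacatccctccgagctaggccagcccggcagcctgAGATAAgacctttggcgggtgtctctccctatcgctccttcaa
Elane: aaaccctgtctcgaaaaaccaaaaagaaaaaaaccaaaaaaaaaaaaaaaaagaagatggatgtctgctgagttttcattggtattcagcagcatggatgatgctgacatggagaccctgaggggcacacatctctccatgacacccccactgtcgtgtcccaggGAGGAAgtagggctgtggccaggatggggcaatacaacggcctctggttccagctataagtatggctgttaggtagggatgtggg
Prtn3: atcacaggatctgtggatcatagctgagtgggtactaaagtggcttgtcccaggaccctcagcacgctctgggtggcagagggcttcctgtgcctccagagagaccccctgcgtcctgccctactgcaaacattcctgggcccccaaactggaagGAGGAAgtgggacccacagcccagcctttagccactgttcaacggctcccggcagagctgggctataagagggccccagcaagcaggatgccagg
Counted from the annotated start, the match began at -56 in Kel, -43 in Rhd, -85 in Elane and -95 in Prtn3. AGATAA, on either strand, was present in 7 of 20 promoters matched to the erythroid list, 0 of 24 of the granulocyte and monocyte list, 0 of 37 of the stem cell list and 1 of 18 of the lymphoid list, against 9.99% of all 32851 promoters. GAGGAA, on either strand, was present in 6 of 20 promoters of the erythroid list, 10 of 24 of the granulocyte and monocyte list, 6 of 37 of the stem cell list and 6 of 18 of the lymphoid list, against 23.3% of all promoters. These counts cover all promoters matched to a list, whether or not the gene was called. Of the erythroid genes with AGATAA, Ces2g, Icam4, Kel and Rhd were called, and Epb42, Epor and Tal1 were not. A match describes the sequence alone.

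Markers of other cell types were examined, of which the lineage-negative gate should remove mature lymphoid and myeloid cells. Over the 4 arrays, 15 of 18 T and NK cell markers, 10 of 16 B lymphocyte markers, 9 of 16 macrophage markers, 9 of 15 mature neutrophil markers, 11 of 18 endothelial and stromal markers, 8 of 17 dendritic cell markers, 3 of 7 eosinophil markers and 2 of 15 megakaryocyte and platelet markers lay below the array medians throughout. The megakaryocyte list had a mean level of 6.62 and 6.30 in LSK pools and 6.41 and 6.29 in MP pools. The mean level of the T and NK list was 4.17 and 4.19 in LSK pools and 3.97 and 3.99 in MP pools, and that of the neutrophil list 4.35 and 4.28 in LSK pools and 4.47 and 4.34 in MP pools. S100a8, a calcium-binding protein of neutrophils, was lower in LSK cells (-1.87 ± 0.31, adjusted p = 0.0085), with both LSK pools below the array medians. Of 14 mast cell and basophil markers, 21.4% were called, all lower, beside 3.19% of all tested rows. They were Hdc (-1.91 ± 0.36, adjusted p = 0.014), the histamine-forming decarboxylase, Mcpt8 (-1.67 ± 0.35, adjusted p = 0.023), a basophil protease, and Ms4a2, the Fc epsilon receptor beta chain. Ms4a2 lay below the array medians in all 4 pools, so its size was not measured. The mast cell and basophil count was 1 without LSK pool 2 and 0 without either MP pool. Emcn, a sialomucin shared by endothelial and stem cells, was higher (1.64 ± 0.35, adjusted p = 0.023), with both MP pools below the array medians. None of 15 megakaryocyte, 16 B lymphocyte, 16 macrophage and 7 eosinophil markers was called. Vpreb1, a B cell precursor gene, was uneven between LSK pools, at 6.71 and 9.32, against 7.06 and 7.01 in MP pools (0.98, adjusted p = 0.46).

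**Figure D3:**
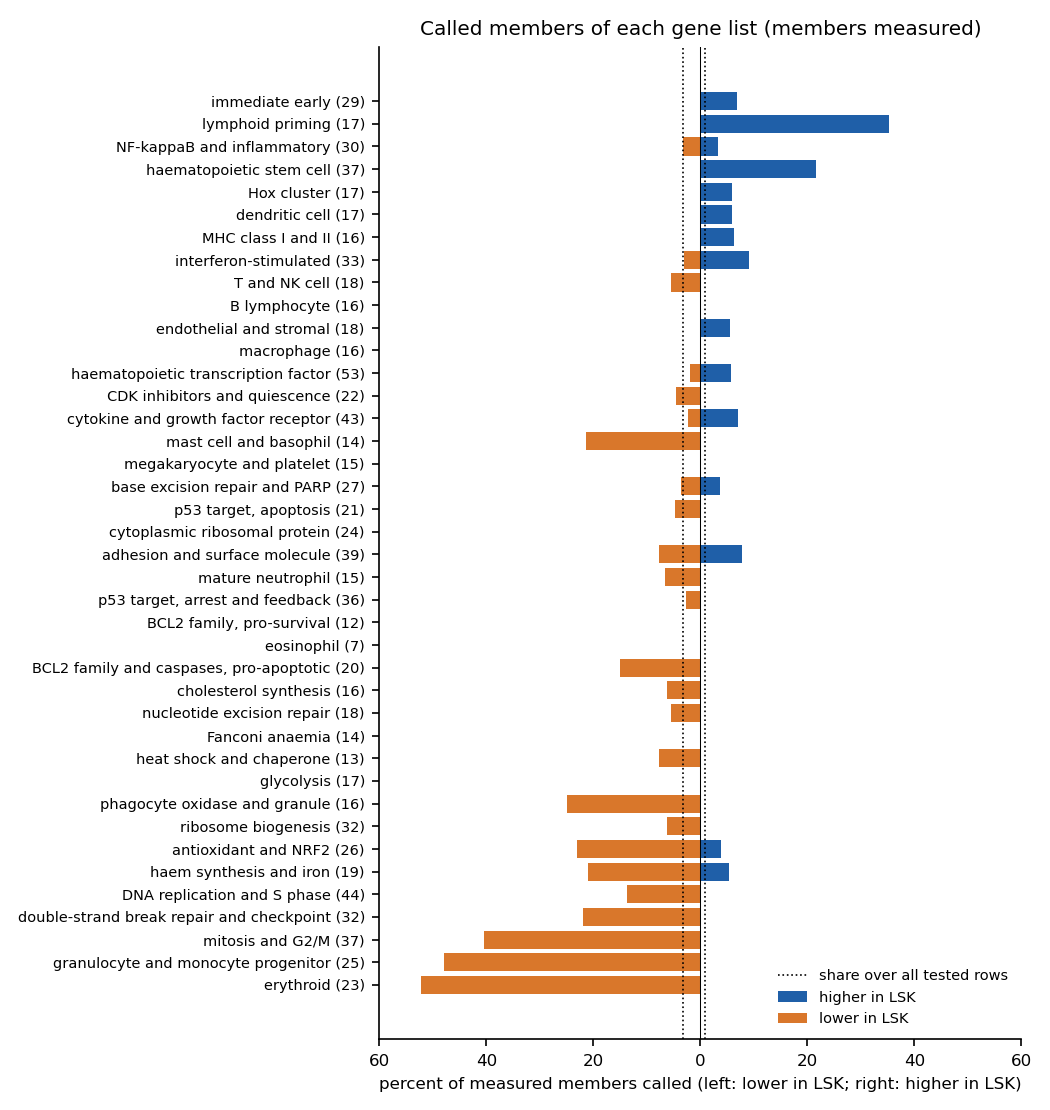
Share of the measured members of each of 41 gene lists, but for the sort gate, that were called in irradiated Parp-2-/- LSK against MP cells (horizontal axis, percent; blue bars to the right are higher in LSK cells, orange bars to the left lower). Dotted lines are the shares over all tested rows, 0.88% higher and 3.19% lower. The longest bars are the erythroid list to the left (52.2%) and the lymphoid priming list to the right (35.3%). The lists were chosen with earlier results of these data known.

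Cell division genes were lower in irradiated LSK cells. Of 37 measured mitosis and G2/M genes, 15 were lower (40.5%, beside 3.19% of all tested rows), 0 were higher and 22 did not pass, with a median of -0.67. All 37 differences were below 0, but 2 were above 0 after a further quantile normalization. Ttk, a spindle checkpoint kinase, read 5.45 and 5.99 in LSK pools and 7.54 and 7.59 in MP pools (-1.84 ± 0.24, adjusted p = 0.0026). Cenpe, a kinetochore motor, read 6.10 and 7.09 in LSK pools and 8.28 and 8.55 in MP pools (-1.82 ± 0.28, adjusted p = 0.0054). Prc1, which bundles microtubules in anaphase, read 4.23 and 5.05 in LSK pools and 6.55 and 6.71 in MP pools (-1.99 ± 0.35, adjusted p = 0.01). The LSK pools lay below the MP pools for each, with pool 1 the lower of them. Cdc25c (-1.65), the phosphatase that releases mitotic entry, Tpx2 (-1.40), Anln (-1.38), Kif2c (-1.29), Hmmr (-1.28), Ube2c (-1.16), Plk1 (-1.15), Ccna2 (-1.04), Kif4 (-0.95), Kif11 (-0.93), Kif20a (-0.89) and Bub1b (-0.77) completed the called members, and LSK levels of Cdc25c, Kif2c and Plk1 were below the array medians. The proliferation marker Mki67 (-0.62, adjusted p = 0.12), the mitotic kinase Cdk1 (-0.45, adjusted p = 0.16) and Ccnb2 (-0.71, adjusted p = 0.15), named after their values were seen, did not pass. The count was 5 without LSK pool 1 or without MP pool 1 and 2 without MP pool 2, and it was 8 after a further quantile normalization.

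DNA replication and repair genes were lower in smaller numbers. The called shares, all lower, were 13.6% of the replication list and 21.9% of the double-strand break list, beside 3.19% of all tested rows. Of 44 genes of replication and S phase, LSK cells were lower for 6 and 38 did not pass (median -0.59), led by Pole2 (-1.32 ± 0.24, adjusted p = 0.013), a subunit of DNA polymerase epsilon, and Rrm1 (-1.01 ± 0.20, adjusted p = 0.02), the large subunit of ribonucleotide reductase. Mcm10, Rpa2, Mcm5 and Rfc1, which serve origin firing, single-strand binding, unwinding and clamp loading, were the others, between -0.96 and -0.68. Of 32 double-strand break repair and checkpoint genes, 7 were lower and 25 did not pass (median -0.62). Rad54l, a motor protein of homologous recombination, read 6.00 and 6.39 in LSK pools and 7.75 and 7.61 in MP pools (-1.48 ± 0.26, adjusted p = 0.0097). Prkdc, the DNA-dependent protein kinase of end joining, read 5.88 and 6.23 in LSK pools and 7.27 and 7.09 in MP pools (-1.12 ± 0.22, adjusted p = 0.017). Xrcc5, the Ku80 end-binding subunit that partners it, read 6.01 and 7.11 in LSK pools and 7.76 and 8.15 in MP pools (-1.40 ± 0.34, adjusted p = 0.039). Pools did not overlap for these genes, although the Xrcc5 levels of the LSK pools differed by more than a log2 unit. Rad51ap1, Polq, Rad54b and Topbp1 were lower by smaller amounts, between -1.10 and -0.63.

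Both lists depended on the scaling and on single pools. After a further quantile normalization 1 replication gene was lower, and 1 repair gene was lower and 1 higher, and without either MP pool the counts were 0 for both lists. Among 27 base excision repair and PARP family genes, Parp1 was lower, Parp12 was higher (0.92 ± 0.21, adjusted p = 0.032) and 25 did not pass (median 0.00). The calls of this list were 0 without LSK pool 1 or either MP pool, and after a further quantile normalization 2 genes were higher and 0 lower. Parp12 encodes an interferon-induced mono-ADP-ribosyltransferase. Parp3 read 0.04 (adjusted p = 0.9) and Parg, which removes ADP-ribose chains, 0.12 (adjusted p = 0.71), both named after their values were seen. Of 18 nucleotide excision repair genes, Ddb1 was lower (-0.94 ± 0.23, adjusted p = 0.038), and none of 14 Fanconi anaemia genes was called. The called shares were 7.41% of the base excision and PARP list and 5.56% of the nucleotide excision list, near the 4.07% of all tested rows.

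Called p53 targets were about as frequent as called rows in general (4.07% called, 3.19% lower). Of 36 targets linked to arrest and feedback, 1 was lower (2.78%), 0 were higher and 35 did not pass (median -0.07). Of 21 apoptotic targets, 1 was lower (4.76%) and 20 did not pass (median 0.00). Mdm2, the p53 ubiquitin ligase, read 9.95 and 10.13 in LSK pools and 9.97 and 10.03 in MP pools (0.04 ± 0.15, adjusted p = 0.9). Ccng1, a p53-induced cyclin, read 10.71 and 10.78 in LSK pools and 10.91 and 10.70 in MP pools (-0.07 ± 0.23, adjusted p = 0.89). The levels of both genes, named after their values were seen, overlapped between the cell types. The mean level of the arrest list was 7.30 and 7.44 in LSK pools and 7.42 and 7.50 in MP pools after irradiation, beside 6.37 and 6.21 in LSK pools and 6.38 and 6.22 in MP pools of unirradiated Parp-2-/- mice. Cd80, a co-stimulatory ligand, was the called arrest-list member (-1.31 ± 0.33, adjusted p = 0.048) and Casp6, an effector caspase, the called apoptotic one (-0.94 ± 0.23, adjusted p = 0.039). After a further quantile normalization 2 arrest-list genes were higher and 0 lower. Among the other apoptosis genes, 3 of 20 pro-apoptotic genes were lower, Casp6, Bnip3l (-0.83) and Cycs (-0.80), and 0 of 12 pro-survival genes were called. The 3 pro-apoptotic calls were 1 without LSK pool 1 and after a further quantile normalization, and 0 without either MP pool.

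Stress and signalling lists held a few called genes each, beside 4.07% of all tested rows. The called shares were 26.9% of the antioxidant and NRF2 list and 12.1% of the interferon-stimulated list. They were 6.67% of the NF-kappaB and inflammatory list and 6.9% of the immediate early list, both near the share over all rows. Of 26 antioxidant and NRF2 target genes, 6 were lower, Hmox1 was higher and 19 did not pass (median -0.51). The lower members were the glutathione transferases Gstm5 (-2.41 ± 0.44, adjusted p = 0.013) and Gstp1 (-1.80), the glutathione synthesis subunit Gclm (-2.10 ± 0.39, adjusted p = 0.013), the pentose phosphate enzyme Pgd (-1.50 ± 0.22, adjusted p = 0.0043), Gpx3 (-1.04) and Nqo1. The count of 7 called genes was 4 without MP pool 1 and 1 without MP pool 2. Nqo1 lay below the array medians in all 4 pools. Pgd read 7.33 and 7.20 in LSK pools and 8.76 and 8.77 in MP pools, with no overlap. Of 33 interferon-stimulated genes, Iigp1 (1.93 ± 0.25, adjusted p = 0.0025), Ifi27l2a (1.69 ± 0.32, adjusted p = 0.017) and Oas2 (0.94 ± 0.18, adjusted p = 0.016) were higher, Usp18, which removes the ISG15 modifier, was lower (-1.07 ± 0.25, adjusted p = 0.032) and 29 did not pass (median 0.28). Of 30 NF-kappaB and inflammatory genes, Tnip3, an inhibitor of NF-kappaB signalling, was higher at 9.97 and 10.16 in LSK pools and 8.24 and 7.68 in MP pools (2.10 ± 0.41, adjusted p = 0.018), Cd80 was lower and 28 did not pass. After a further quantile normalization 5 interferon-stimulated genes were higher and 0 lower, and 2 NF-kappaB and inflammatory genes were higher and 0 lower. Of 29 immediate early genes, Rgs1 (1.61 ± 0.37, adjusted p = 0.033), a regulator of G protein signalling, and Dusp1 (1.26 ± 0.25, adjusted p = 0.018), a phosphatase of MAP kinases, were higher; 27 of the 29 differences were above 0 (25 under either other scaling), with a median of 0.58. In these last 3 lists the calls were 4, 2 and 2 with all arrays, 1, 0 and 0 without MP pool 1, and 1, 0 and 1 without MP pool 2.

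Among receptors and surface molecules, calls went in both directions with the values as deposited. After a further quantile normalization 4 receptors were higher and 0 lower, and 3 adhesion molecules were higher and 2 lower. With the values as deposited, the called shares were 9.3% of the receptor list and 15.4% of the adhesion list, beside 4.07% of all tested rows. They were 6.25% of the MHC list and 6.25% of the ribosome biogenesis list, both near the share over all rows. Of 43 cytokine and growth factor receptors, Il18r1, Flt3 and Robo4 were higher, Ifngr1, the interferon gamma receptor chain, was lower (-1.13 ± 0.28, adjusted p = 0.04) and 39 did not pass. Of 39 adhesion and surface molecules, Emcn, Cd27 and Procr were higher, and Prom1 (-1.24 ± 0.19, adjusted p = 0.0054), the membrane protein CD133, Icam4 (-1.23 ± 0.20, adjusted p = 0.0073), an erythroid adhesion molecule, and Itga6 (-0.74 ± 0.19, adjusted p = 0.047), an integrin chain, were lower. Without MP pool 2 the called receptors numbered 2 and the called adhesion molecules 0, and without MP pool 1 they numbered 2 and 3. H2-DMa, which loads peptides on MHC class II, was the called gene of 16 MHC genes (0.79 ± 0.18, adjusted p = 0.034). Of 32 ribosome biogenesis genes, Mybbp1a (-0.71) and Dkc1 (-0.61) were lower. None of the ribosome biogenesis genes was called without LSK pool 1 or either MP pool, and after a further quantile normalization 1 was higher and 0 lower. With all arrays, 0 of 24 cytoplasmic ribosomal protein genes and 0 of 17 glycolysis genes were called. A further 4 lists had 1 called member each that was lower. They were Hsph1 (-0.92) of the heat shock genes, Msmo1 (-1.42) of cholesterol synthesis, Rbl1 (-1.02) of the cell cycle inhibitors and Nkg7 of the T and NK cell markers. The called shares of these lists, 4.55% to 7.69%, were near that of all tested rows.

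The same contrast was set beside the unirradiated Parp-2-/- and the irradiated WT cells, which share no array with it. In unirradiated Parp-2-/- cells 768 rows were called (3.34%), 190 higher (0.827%) and 578 lower (2.52%), and in irradiated WT cells 562 (2.45%), 132 higher (0.575%) and 430 lower (1.87%). With 1 pool left out, the count of unirradiated Parp-2-/- cells was 280 without MP pool 1, 88 without MP pool 2 and 452 without LSK pool 1. The count of irradiated WT cells was 10 without MP pool 1, 15 without MP pool 2, 269 without LSK pool 1 and 2240 without LSK pool 2. Of the 935 rows called in irradiated Parp-2-/- cells, 298 were called in unirradiated Parp-2-/- cells as well (31.9% of 935 and 38.8% of 768) and 218 in irradiated WT cells (23.3% of 935 and 38.8% of 562). All of these shared calls had the same sign, and 117 rows were called in all 3 conditions. Counting rows whether or not called there, 95.2% of the 935 had the same sign in unirradiated Parp-2-/- cells and 95.4% in irradiated WT cells, against 75.9% and 77% of all tested rows. Across the 22961 rows the differences correlated at r = 0.626 with those of unirradiated Parp-2-/- cells and at r = 0.630 with those of irradiated WT cells. Rows are not independent, and they share the array design and the normalization. The median absolute difference of the 935 rows was 1.09 where they were chosen, beside 0.656 in unirradiated Parp-2-/- and 0.636 in irradiated WT cells.

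**Figure D4:**
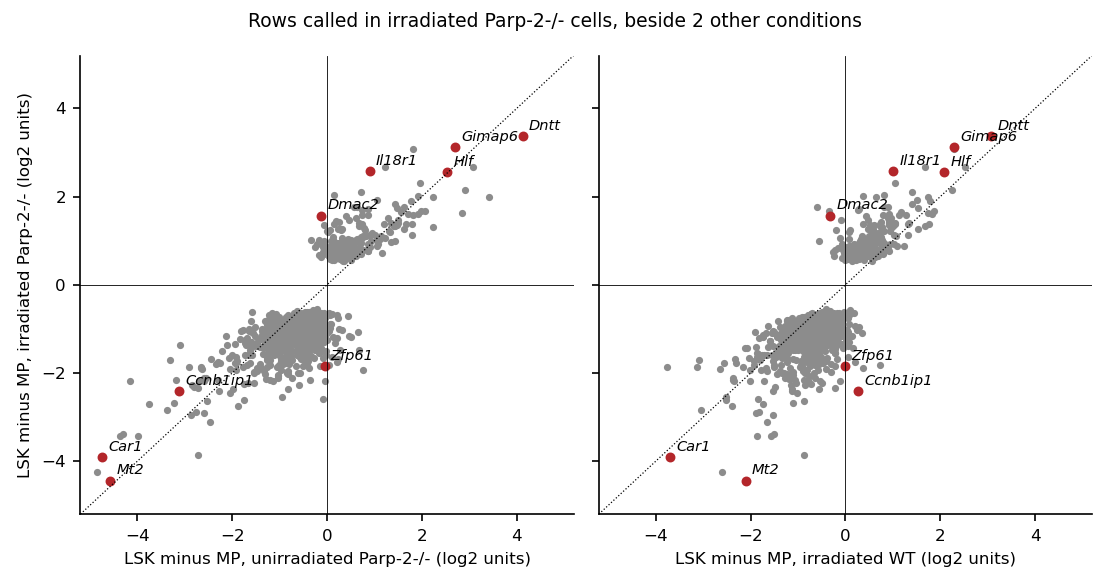
LSK minus MP difference of the 935 rows called in irradiated Parp-2-/- cells (vertical axis, log2 units) against the difference in unirradiated Parp-2-/- cells (left panel) and irradiated WT cells (right panel). The dotted line marks equal differences and red points are named genes; Ccnb1ip1 lies at -2.42 on the vertical axis of both panels, and at -3.11 on the left and 0.27 on the right horizontal axis.

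Most lists had medians of the same sign in the 3 conditions. Stem cell markers had medians of 0.42 in irradiated Parp-2-/-, 0.44 in unirradiated Parp-2-/- and 0.33 in irradiated WT cells, and lymphoid markers of 0.45, 0.70 and 0.57. Granulocyte and monocyte markers had medians of -0.93, -0.60 and -1.44. Erythroid markers had medians of -1.06, -1.81 and -0.49, with 12, 16 and 6 members lower. The mean level of the erythroid list was 5.10 and 5.13 in LSK pools and 6.50 and 6.88 in MP pools of irradiated Parp-2-/- mice, 5.09 and 5.26 in LSK pools and 7.12 and 7.45 in MP pools of unirradiated Parp-2-/- mice, and 5.11 and 5.15 in LSK pools and 5.94 and 6.04 in MP pools of irradiated WT mice. The LSK levels of the 3 conditions overlapped, and the MP levels did not. In the mitosis list, 15 genes were lower in irradiated Parp-2-/-, 1 in unirradiated Parp-2-/- and 3 in irradiated WT cells, with medians of -0.67, -0.42 and -0.63. The differences between these conditions are tested per gene below.

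**Figure D5:**
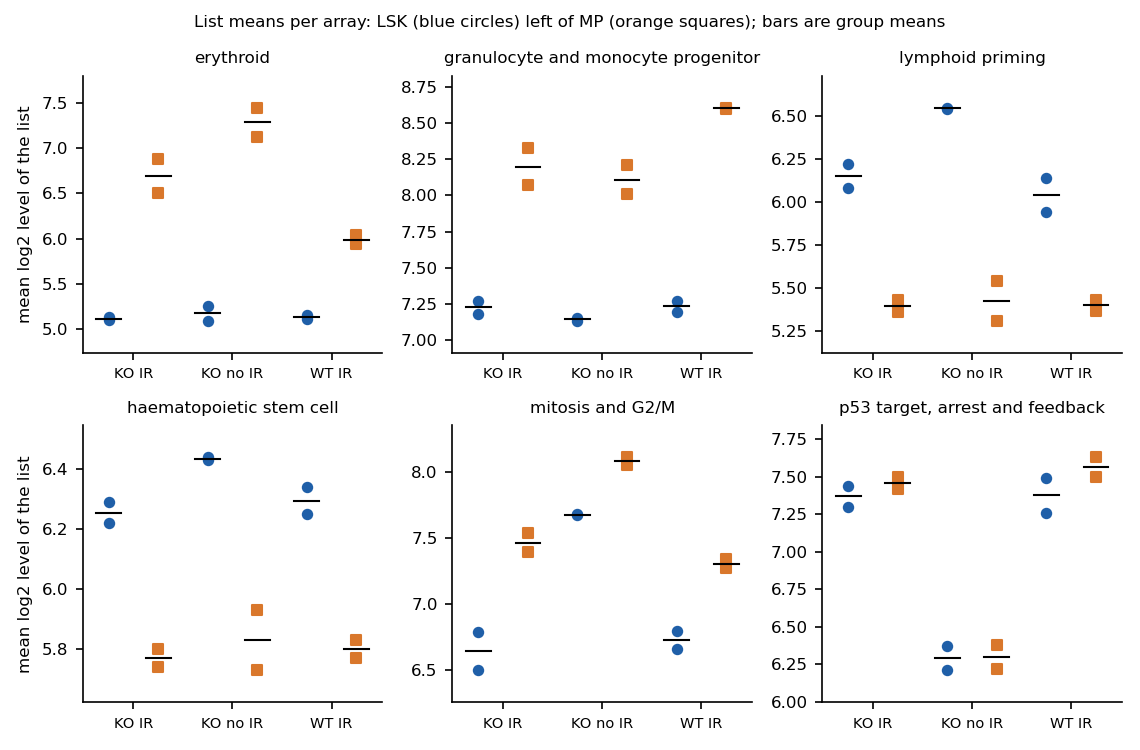
Mean log2 level of the measured members of 6 gene lists on each array (vertical axis, with its own range in each panel) in irradiated Parp-2-/- (KO IR), unirradiated Parp-2-/- (KO no IR) and irradiated WT cells (WT IR). Blue circles are LSK pools, orange squares MP pools and bars group means; erythroid levels lie between 5.09 and 5.26 in all LSK pools shown and between 5.94 and 7.45 in the MP pools.

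Whether the cell type difference itself depended on irradiation or on Parp-2 was tested as an interaction, with a median standard error of 0.292. Between irradiated and unirradiated Parp-2-/- cells 0 of 22961 rows passed (0%), with 1230 rows at an unadjusted p under 0.05 and a smallest adjusted p of 0.208. The count was 10 without LSK pool 1 and 4 without LSK pool 2 of the irradiated cells, 10 without LSK pool 1 of the unirradiated cells, and 0 without any other pool. Between irradiated Parp-2-/- and irradiated WT cells 1 row passed (0.00436%), with 1184 at an unadjusted p under 0.05. That count was 17 without Parp-2-/- LSK pool 1, 3 without Parp-2-/- LSK pool 2, 2 without WT LSK pool 2 and 0 without any of the 4 MP pools. With all arrays, no erythroid, stem cell, mitosis or p53 gene had a cell type difference shown to differ between these conditions, which does not show that the differences were equal.

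The row that passed was Ccnb1ip1, a RING-type ubiquitin ligase known from meiotic crossing over, whose gene lies on chromosome 14, as does Parp2. It read 4.49 and 4.51 in LSK pools and 6.93 and 6.91 in MP pools of irradiated Parp-2-/- mice (-2.42 ± 0.19, adjusted p = 0.00021), with both LSK pools below the array medians. In unirradiated Parp-2-/- cells the difference was -3.11 (adjusted p = 1.4e-05). In irradiated WT cells it read 3.45 and 3.89 in LSK pools and 3.31 and 3.47 in MP pools (0.27, adjusted p = 0.39), all below the array medians and far below the Parp-2-/- MP pools. Only the Parp-2-/- MP level is thus above the array medians, so neither the WT difference nor the size of the interaction is taken as measured. The irradiated Parp-2-/- LSK pools, at 4.49 and 4.51, also lay above every irradiated WT pool, a difference that was not tested. For a gene on the chromosome of Parp2, loss of Parp-2 and DNA linked to the altered allele are confounded by the design. The cause of the Ccnb1ip1 difference was not tested. The fitted interaction with genotype was -2.69 ± 0.27 (adjusted p = 0.0078), and that with irradiation did not pass (adjusted p = 0.86). With 1 irradiated MP pool left out, the fitted genotype interaction was -2.77 to -2.61 and lost its call (adjusted p = 0.091 and 0.085 without Parp-2-/- MP pool 1 or 2, and 0.1 and 0.057 without WT MP pool 1 or 2).

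Some further genes, chosen after their values were seen, had larger differences in irradiated Parp-2-/- cells than in the other conditions, and none of their interactions passed. Dmac2, an assembly factor of the mitochondrial respiratory chain, read 6.91 and 7.06 in LSK pools and 5.32 and 5.51 in MP pools (1.57 ± 0.18, adjusted p = 0.0015), beside differences of -0.12 in unirradiated Parp-2-/- and -0.33 in irradiated WT cells. Its interactions did not pass (adjusted p = 0.21 with irradiation and 0.065 with genotype). Zfp61, a zinc finger gene, read 4.41 and 4.58 in LSK pools and 6.23 and 6.46 in MP pools (-1.85 ± 0.22, adjusted p = 0.0017), beside -0.05 in unirradiated Parp-2-/- and -0.01 in irradiated WT cells, and its interactions did not pass either (adjusted p = 0.26 and 0.21). Il18r1 had differences of 2.57, 0.90 and 1.01 in the 3 conditions (interactions, adjusted p = 0.67 with irradiation and 0.86 with genotype). Cxcl10, an interferon-induced chemokine, was uneven between LSK pools, at 7.90 and 9.01, against 6.42 and 6.32 in MP pools, and did not pass (2.08 ± 0.57, adjusted p = 0.06), beside differences of -0.75 in unirradiated Parp-2-/- and 0.46 in irradiated WT cells.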

How the data were processed

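The 16 arrays were deposited as 1 table. The authors' values are log2 intensities of transcript clusters. Per the submitters' processing notes, RMA, affy 2.10, R 2.15 and limma were used, with no order stated, and which arrays were normalised together is not given in the sources used here. That the scale is log2 was judged from the range of the deposited values, which were not scaled further.

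Of 34760 rows, 22961 have a gene symbol and were tested (21640 with 1 symbol, 1321 with several, from which no gene is named). RefSeq (GRCm38.p6) held 21553 of them by Entrez identifier. A linear model of 8 group means over 16 arrays was fitted in limma 3.58.1 (R 4.3.3) with eBayes (residual degrees of freedom 8, prior 4.35) and two-sided tests. On simulated data, 65 of 100 rows changed by 1 log2 unit and 92 of 100 changed by 2 were recovered, and 6 unchanged rows were called. The simulated noise was independent between rows and equal for LSK and MP pools, unlike in these data, so recovery here can differ. Levels under an array's median were not taken as above background. The median is a chosen cut and not a measured detection limit, so the size of a difference with 1 group under it is uncertain. This held for 57 of the higher calls (MP below) and 105 of the lower calls (LSK below), and on 60 called rows both groups were below.

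The members and the 41 gene lists (928 genes, 836 with a row of 1 symbol, of which the row with the highest mean was taken) were chosen with earlier results of these data known. Named genes were Parp2, Parp1, Ly6a and Kit, the 15 largest differences each way among called, non-overlapping rows (predicted, small RNA and multi-copy genes skipped), called interactions, and up to 4 members of each list by size. Further called list members were added, and others are said to be chosen after their values were seen. Alternatives covered normalization, filters, moderation, array weights, the arrays fitted, a replicate block and leaving out single pools.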

Additional observations from a re-analysis of the deposited data

Results flagged for a closer look

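The LSK minus MP difference of Ccnb1ip1 differed by genotype after irradiation, by -2.69 log2 units (limma interaction, adjusted p = 0.0078). The difference was -2.42 in irradiated Parp-2-/- cells and 0.27 in irradiated WT cells. It was -3.11 in unirradiated Parp-2-/- cells. All levels in irradiated WT cells and in irradiated Parp-2-/- LSK cells were below the array medians, so the size of the interaction is not measured. Ccnb1ip1 and Parp2 lie on the same chromosome, so loss of Parp-2 and DNA linked to the altered allele are confounded. The cause was not tested. The interaction did not pass in a fit of the compared arrays alone (adjusted p = 0.1), after a further quantile normalization (-2.40, adjusted p = 0.089), over all rows of the table (adjusted p = 0.051) or with the replicate block (adjusted p = 0.074).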

How the results depend on the processing

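Counts of called rows moved by more than 1.5 times under several alternatives. Fitting only the compared arrays gave 97 calls in irradiated Parp-2-/-, 119 in unirradiated Parp-2-/- and 68 in irradiated WT cells, a fit with fewer residual degrees of freedom. A further quantile normalization gave 541, 471 and 189 in the same order. Testing all rows, with and without a symbol, gave 488, 413 and 201. Array weights gave 1359 in unirradiated Parp-2-/- cells. Leaving out 1 pool of the groups compared gave 123 to 1325 in irradiated Parp-2-/-, 88 to 605 in unirradiated Parp-2-/- and 10 to 2240 in irradiated WT cells. For the interactions it gave 0 to 10 (irradiation) and 0 to 17 (genotype). The genotype interaction had 0 calls with the compared arrays only, after quantile normalization, over all rows and with the replicate block, and 2 with 1 row per gene. The causes of these shifts were not tested.

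The labels give LSK and MP pools the same numbers. Deviations of same-numbered pools from their group means correlated at -0.005 in irradiated and 0.111 in unirradiated Parp-2-/- cells and at 0.066 and 0.060 in irradiated and unirradiated WT cells, so the numbers were not taken to pair the samples. With the pool number as a block, 566 rows were called in irradiated Parp-2-/-, 503 in unirradiated Parp-2-/- and 193 in irradiated WT cells. Under the remaining alternatives (a shift to 1 median, the filter on dim rows, the intensity trend, and 1 row per gene or array weights outside the cases above), the counts stayed within 1.5 times.

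Over the named genes and all alternatives, no called difference changed sign, 2546 results stayed on their side of the threshold, 533 lost and 45 gained a call. Levels near or below the array medians limit how far a difference can be measured.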
